A study of Mus musculus with 12 samples.

Results

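The step from 5 to 12 months of age in mouse rod photoreceptors was read from 8 arrays, 4 labelled 12 months (AR16, B16, D18 and A19) against 4 labelled 5 months (A29, B29, C29 and A30), of 12 arrays in the series. The arrays were chosen by the age in their labels, and all 45037 probe sets other than the 64 controls were compared. A further 4 arrays at 1.5 months (C21, B21, D21 and E21) served to estimate the spread and to place the later step. The animals of every age were C57BL/6 mice of the transgenic line Nrlp-EGFP, labelled wt and given no treatment other than the purification of rods. In this line the promoter of Nrl, a rod transcription factor gene, drives the green fluorescent protein by which the rods were sorted. Dissociated rods mostly lose their outer segments, so the samples were cell bodies, and the small RNA amounts were amplified before hybridization. Neither the labels nor the methods gave the sex of the animals, or said how many made up 1 array.

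Rods are the photoreceptors of dim light. Light bleaches rhodopsin, the G protein transducin then activates a phosphodiesterase, and the fall in cyclic GMP closes channels in the outer segment, while the guanylate cyclase and its activators restore the cyclic GMP. The outer segment is a modified cilium that is renewed every day, at a high cost in ATP, much of which comes from the mitochondria of the inner segment.

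The deposited values are log2 values centred on the median of each probe set over the 12 arrays, so a value of 0 is the median array and only differences can be read. Array medians lay between -0.0114 and 0.00912. The median of 13 rod marker genes lay between -0.09 and 0.02 on every array. Array A30 stood apart from the other 5-month arrays. Its mean over 3 Y-linked genes was 4.29, against 3.95 to 4.2 at 12 months and -0.49 to -0.33 on A29, B29 and C29. Its cone marker median was 1.92, against 0.6 to 1.85 at 12 months and -0.75 to -0.17 on the other 5-month arrays. Another difference ran through all 4 of the 5-month arrays: the BioC hybridization controls, bacterial transcripts added to every sample, averaged -1.23, -1.4, -1.23 and -1.61 there, against -0.11 to 0.36 at 12 months and -0.02 to 0.18 at 1.5 months. On this measure A30 lay with its own age. The BioC level and the age of 5 months cannot be told apart in these arrays, and each result below rests on them.

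**Figure D1:**
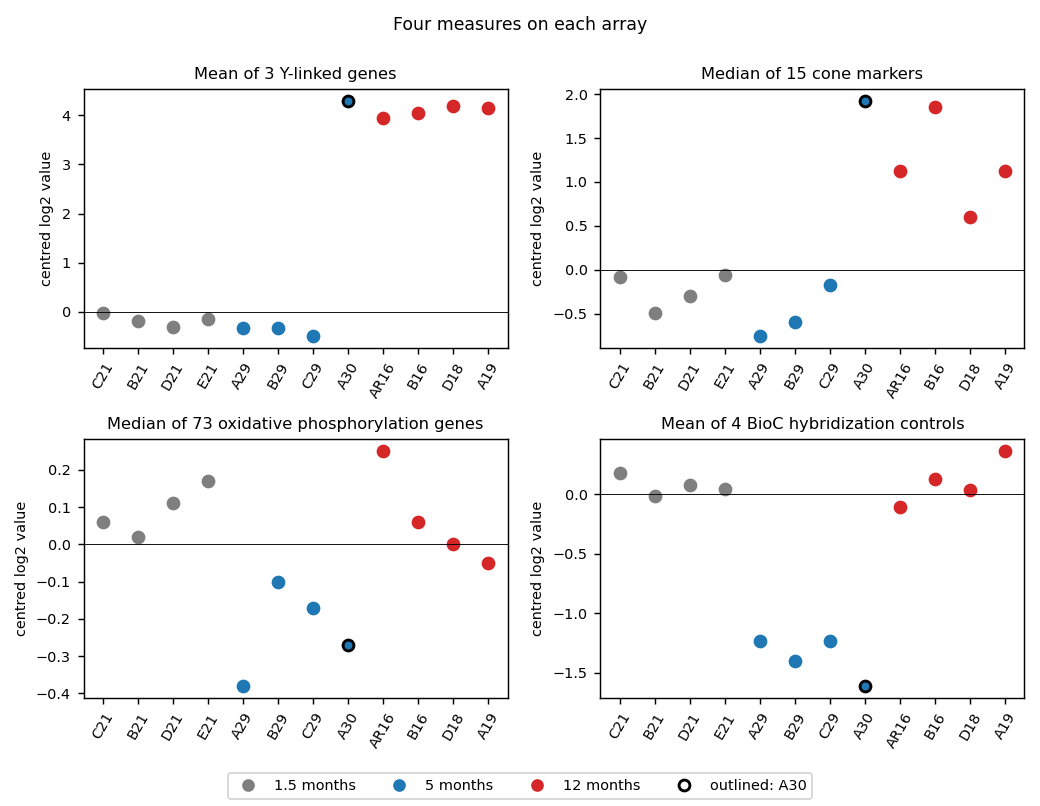
Array values on the centred log2 scale (y axes) for the 12 arrays in age order (x axes): the Y-linked mean, the cone marker median, the BioC control mean and the median of the oxidative phosphorylation genes. Array A30 lies with the 12-month arrays in the Y-linked mean (4.29) and the cone median (1.92), and with the 5-month arrays in the BioC controls (-1.61) and the oxidative phosphorylation genes (-0.27).

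With all 12 arrays in the model, 31 probe sets rose by 1.5-fold or more from 5 to 12 months and 63 fell, at an adjusted p (Benjamini-Hochberg) under 0.05. These were 0.0688% and 0.14% of the probe sets tested. The rises included Hspa2, a chaperone, Irs1 of insulin signaling, H2-K1 of antigen presentation and Uqcrb of the respiratory chain. The falls included Map2 of the microtubule cytoskeleton, the splicing regulator Rbm25, the corepressor Rcor3 and Guca1b of the light response. The counts depended on the model and on single arrays. They were 0 and 0 in limma over the 5- and 12-month arrays alone, with the code number as a random block, and with the cone median or the Y-linked mean as a covariate, and under each of these 4 settings all 30 named probe sets with the largest changes lost their call. At an unadjusted p under 0.05 these fits had between 1961 and 3110 probe sets higher and between 2611 and 3257 lower. Without A29 or B29 no probe set passed, although 2499 or 2938 were higher and 2798 or 3171 lower at an unadjusted p under 0.05. There were 3 rises and 4 falls without C29, 3 and 2 without AR16, and 3 and 4 without B16, but 84 and 132 without D18 and 53 and 160 without A19. Leaving out a 1.5-month array gave 6 and 15 without C21, 19 and 38 without B21, 5 and 13 without D21, and 4 and 13 without E21. Most of the probe sets described next were among the largest changes with a listed gene, and some smaller ones were added for their function.

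Genes of protein folding and growth factor signaling were among the rises. Hspa2 on chromosome 12, a chaperone of the HSP70 family, had values of -0.11, 0.08, -0.08 and 0.35 on the 5-month arrays A29, B29, C29 and A30, and 1.49, 1.64, 0.75 and 1.17 on the 12-month arrays AR16, B16, D18 and A19. The 2 ages did not overlap, and the 1.5-month arrays lay lower still, between -0.64 and -0.12. The rise was 1.20 log2 (SE 0.189, adjusted p = 0.0357), or 2.3-fold. Irs1 on chromosome 1, the adaptor that carries the signal of the insulin receptor, read 0.08, -0.06, -0.08 and 0.06 at 5 months and 1.2, 1.39, 1.02 and 0.83 at 12 months. It rose by 1.11 log2 (SE 0.172, adjusted p = 0.0338), and its 1.5-month values of -1.79 to -0.95 put the 5-month arrays between the other ages. Fgfbp3 on chromosome 19, which binds fibroblast growth factors, read -0.75, -0.35, -0.47 and -0.64 at 5 months and 0.55, 0.29, 0.46 and 0.23 at 12 months. Its rise of 0.94 log2 (SE 0.125, adjusted p = 0.0264) differed in course from that of Irs1, since the 1.5-month arrays lay between, at -0.2 to 0.22.

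Other rises included a transporter, a receptor subunit, an antigen-presenting molecule and adaptor proteins. Slc49a4 on chromosome 16, a lysosomal membrane transporter, read -0.88, 0.05, -0.1 and -0.13 at 5 months and 0.83, 0.9, 0.78 and 1.02 at 12 months, a rise of 1.15 log2 (SE 0.184, adjusted p = 0.0357). All of the 1.5-month values, -0.43 to 0.12, were below the 12-month values. Chrna7 on chromosome 7, the alpha7 subunit of the nicotinic acetylcholine receptor, read 0.26, 0.03, -0.16 and -0.03 at 5 months and 0.83, 1.1, 0.53 and 1.09 at 12 months, a rise of 0.86 log2 (SE 0.138, adjusted p = 0.0357). A probe set of H2-K1 on chromosome 17, a classical MHC class I heavy chain, read -0.02, 0.02, -0.03 and 0.1 at 5 months and 0.71, 1.21, 1.12 and 0.51 at 12 months, a rise of 0.87 log2 (SE 0.143, adjusted p = 0.0387). Its identifier marks it as one that can also bind related transcripts, so it may read other MHC class I genes as well. Slc9a3r1, a scaffold protein of the apical membrane, rose by 0.86, and Skap2, an adaptor of Src family kinases, by 0.90, both with an adjusted p of 0.0498.

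Several further rises had low values at 5 months and similar ones at 1.5 and 12 months. Pgbd1, a gene derived from a piggyBac transposase, read -0.64, -1.45, -0.83 and -1.3 at 5 months and 0.1, 0.69, -0.14 and 0.76 at 12 months, the largest rise of a probe set with 1 listed gene, at 1.41 log2 (SE 0.234, adjusted p = 0.0387). Sync, an intermediate filament protein, read -1.22, -1.05, -1.24 and -1.19 at 5 months and 0.14, 0.17, -0.52 and 0.16 at 12 months, a rise of 1.16 log2 (SE 0.188, adjusted p = 0.0359). At 1.5 months Pgbd1 read -0.06 to 0.56 and Sync -0.14 to 0.69. Uqcrb, a subunit of respiratory complex III, rose by 0.70 log2 (SE 0.108, adjusted p = 0.0338), from -0.64, -0.34, -0.33 and -0.63 to 0.3, 0.13, 0.1 and 0.32. Srprb, the beta subunit of the receptor for the signal recognition particle, rose by 0.75, Mrpl14 of the mitochondrial ribosome by 0.65 and Prkaca, the catalytic subunit of protein kinase A, by 0.66. All of their 5-month arrays lay below all of the 12-month arrays. A further 10 of the 31 raised probe sets had no gene, or more than 1, in the platform annotation used here. Of these, 7 rose more than any probe set with 1 listed gene, by up to 4.11 log2. The one with the rise of 4.11 read -0.07, -0.3, 0.03 and 3.36 on A29, B29, C29 and A30. It read 3.84 to 6.25 at 12 months, so A30 lay nearer to those arrays than to its own age.

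**Figure D2:**
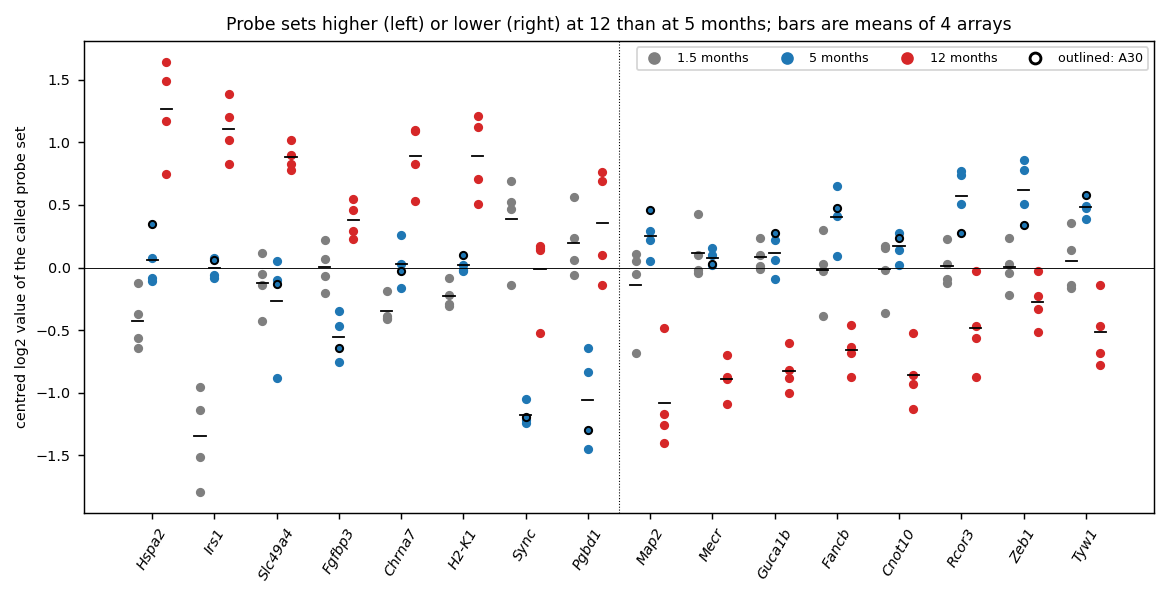
Values of each array on the centred log2 scale (y axis) for 8 raised (left) and 8 lowered (right) probe sets (x axis), coloured by age, with A30 outlined and bars at the mean of the 4 arrays of an age. In each the 4 arrays at 12 months lie beyond the 4 at 5 months, from Pgbd1 (1.41 higher) to Map2 (1.33 lower), while the 1.5-month arrays lie near the 5-month ones for Hspa2 and Guca1b and near the 12-month ones for Sync.

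Among the falls, Guca1b was the gene of the light response. It encodes a guanylate cyclase activator by which calcium regulates the recovery of cyclic GMP. The probe set read 0.22, 0.06, -0.09 and 0.28 at 5 months and -0.82, -1, -0.88 and -0.6 at 12 months, and -0.01 to 0.24 at 1.5 months. It fell by 0.94 on the log2 scale (SE 0.116, adjusted p = 0.0264), with all 12-month arrays below the other 8. Mecr, a reductase of mitochondrial fatty acid synthesis, behaved alike on its probe set, with 0.02, 0.1, 0.16 and 0.03 at 5 months and -0.87, -1.09, -0.89 and -0.7 at 12 months. It fell by 0.96 (SE 0.121, adjusted p = 0.0264). Aldh1l2, a mitochondrial enzyme of folate metabolism, fell by 0.94 (adjusted p = 0.0357), from between -0.02 and 0.47 to between -0.89 and -0.6.

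Genes of the microtubule cytoskeleton fell at 4 probe sets. Map2, which binds and stabilizes microtubules, read 0.29, 0.05, 0.22 and 0.46 at 5 months and -1.26, -1.4, -0.48 and -1.17 at 12 months, the largest named fall, by 1.33 (SE 0.211, adjusted p = 0.0357). A probe set of Camsap1, which binds microtubule minus ends, fell by 0.76 (SE 0.109, adjusted p = 0.0337), from between 0.35 and 0.59 to between -0.51 and -0.05. Those of Clasp1 and Clip1, which bind growing plus ends, fell by 0.73 (adjusted p = 0.0387) and by 0.60 (adjusted p = 0.0359). These genes were grouped after their values were seen, and no count beyond them is drawn from the grouping.

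RNA processing held the next group. Rbm25, a splicing regulator, read 0.34, 0.38, 0.37 and 0.24 at 5 months and -0.37, -0.46, -0.67 and -0.39 at 12 months, and fell by 0.81 (SE 0.108, adjusted p = 0.0264). Malat1, a nuclear long noncoding RNA, read 0.34, 0.48, 0.38 and 0.47 against -0.54, -0.56, -0.14 and -0.11, and fell by 0.76 (SE 0.122, adjusted p = 0.0357). At 1.5 months Rbm25 read -0.25 to 0.17 and Malat1 -0.18 to 0.11, below all 5-month arrays in each. On 1 probe set each, Luc7l2, a splicing factor of the U1 particle, fell by 0.84 (adjusted p = 0.0408) and Tra2b, a splicing activator, by 0.68 (adjusted p = 0.0446). Likewise on 1 probe set each, Zc3h13, a part of the complex that methylates adenosine in mRNA, fell by 0.62 (adjusted p = 0.0457) and Adar, an RNA editing enzyme, by 0.59 (adjusted p = 0.0446). Cnot10, a subunit of the CCR4-NOT complex that removes poly(A) tails, read 0.14, 0.28, 0.02 and 0.24 at 5 months and -0.86, -1.13, -0.52 and -0.93 at 12 months, and fell by 1.03 (SE 0.148, adjusted p = 0.0337). Tyw1, an enzyme of tRNA modification, fell by 1.005 (SE 0.152, adjusted p = 0.0337), from between 0.39 and 0.58 to between -0.78 and -0.14.

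Regulators of transcription, DNA repair and signaling were also among the falls, a grouping made after their values were seen. Rcor3, a corepressor of the CoREST family, read 0.74, 0.51, 0.77 and 0.28 at 5 months and -0.03, -0.87, -0.56 and -0.47 at 12 months, and fell by 1.05 (SE 0.169, adjusted p = 0.0357). Zeb1, a zinc finger transcription factor, read 0.86, 0.51, 0.78 and 0.34 against -0.51, -0.33, -0.23 and -0.03, and fell by 0.89 (SE 0.146, adjusted p = 0.0362). In both, A30 was the lowest of the 5-month arrays but remained above the 12-month arrays. Fancb, an X-linked gene of the Fanconi anemia DNA repair complex, fell by 1.07 (SE 0.158, adjusted p = 0.0337), and Sik3, a kinase related to AMP-activated kinase, by 0.93 (SE 0.15, adjusted p = 0.0357). Kdm5c, an X-linked histone demethylase that escapes X inactivation, fell by 1.33 (SE 0.237, adjusted p = 0.0479), but A30 read -0.39 where A29, B29 and C29 read 0.47, 0.59 and 0.75. With the Y-linked mean as a covariate its difference was -0.64 (adjusted p = 0.428), the highest adjusted p of its settings, which reached down to 0.00477 without A30. Lrguk, Gm32743, Nktr and Smim31 fell by 0.91, 0.90, 0.89 and 0.89. A further 22 of the 63 lowered probe sets had no gene, or more than 1, in the annotation used here, and fell by 0.60 to 1.27.

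The 1.5-month arrays separated the changes into those in which the oldest rods stood apart and those in which the 5-month rods did. Of the 31 raised probe sets, 19 had all 12-month arrays above the other 8 arrays, and 14 had all 5-month arrays below the other 8, with 2 counted in both. Of the 63 lowered probe sets, 40 had the 12-month arrays below all others, 25 had the 5-month arrays above all others, 7 did both and 5 neither. Hspa2, Irs1, Guca1b and Mecr belonged to the first kind, Sync, Uqcrb and Malat1 to the second, and Rbm25 to both. In the first kind the 12-month arrays were also, with A30, the ones with the Y-linked signal and the high cone medians. At 1.5 months the Y-linked mean was -0.32 to -0.03 and the cone median -0.49 to -0.06. How much of the first kind went with either was not tested. In the second kind the 5-month arrays, which also carried the low BioC controls, were the ones that differed, and the part of that difference in these results was not tested.

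Many genes were measured by several probe sets, which often lie in different parts of the transcript, and these did not all move with the one that was called. The 21 genes with a raised probe set had 27 further probe sets in 15 of the genes. Of these, 24 had the same sign, with a median of 0.267 against 0.857 for the called ones, and 1 passed the adjusted p, the second probe set of Prkaca (0.58, adjusted p = 0.0411). The 39 genes with a lowered probe set had 106 further probe sets in 35 genes, of which 84 had the same sign, with a median of -0.177 against -0.806, and none passed. For Malat1 all 7 probe sets were negative, from -0.15 to -0.76, and for Rbm25 all 6, from -0.25 to -0.81. The other Map2 probe sets read -0.25, -0.56 and -0.57, and the other Uqcrb probe set 0.47. By contrast the other probe set of Guca1b read 0.01, those of Mecr -0.03 and 0.13, those of Sync -0.01 and 0.01, those of Cnot10 -0.07, 0.02 and 0.00, and those of Zeb1 0.02, 0.16 and 0.09. For these 5 genes the other probe sets read within 0.16 of 0. Slc49a4 and Chrna7 were alike, with 0.08 and 0.14 on their other probe set. The other probe sets of Tra2b read -0.19 to -0.02, those of Adar -0.17 and 0.23, those of Sik3 -0.13 to 0.01 and that of Tyw1 -0.18. Those of Luc7l2 spread from -0.61 to 0.03 and those of Rcor3 from -0.66 to 0.31, while those of Zc3h13 read -0.42 and -0.33. The other H2-K1 probe sets read 1.17, 0.62 and 0.07. Hspa2 and Irs1 each had a single probe set.

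**Figure D3:**
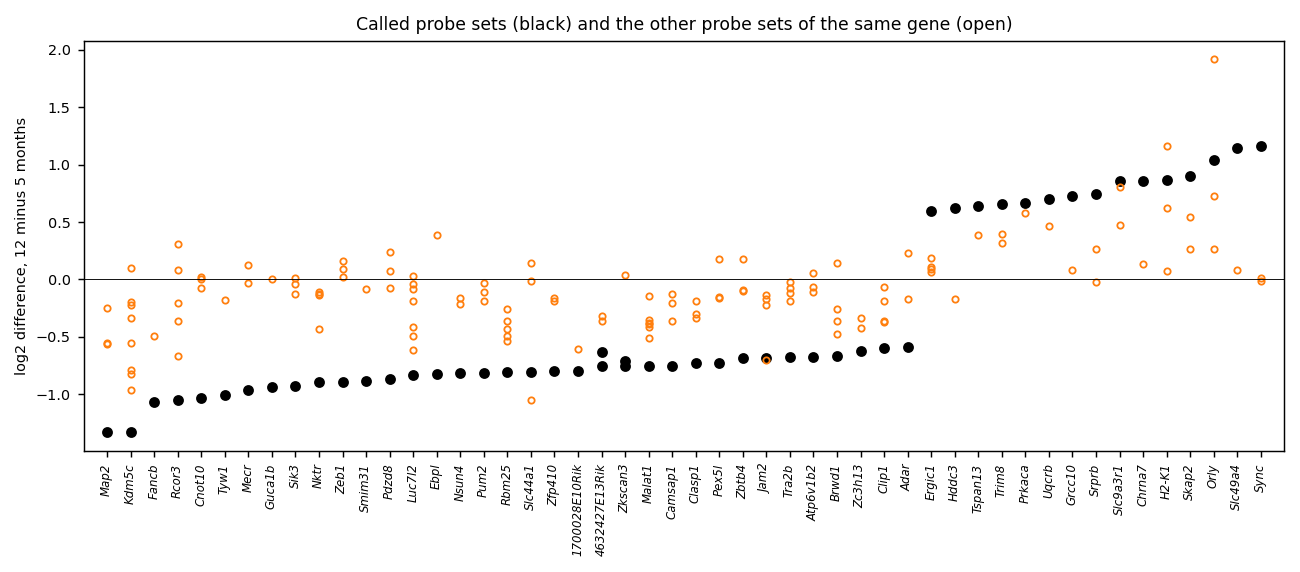
Difference of 12 minus 5 months on the log2 scale (y axis) for every probe set of the genes with a called probe set and at least 1 other (x axis), called ones filled and the others open. All 7 probe sets of Malat1 and all 6 of Rbm25 lie below 0, while the uncalled probe set of Guca1b lies at 0.01.

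Averaged over the probe sets of each gene, no gene of 18193 passed an adjusted p under 0.05 in limma (0% called), and the lowest adjusted p was 0.052. At an unadjusted p under 0.05, 1599 genes were higher and 1199 lower. The lowest value of 0.052 was shared by Hspa2, Irs1, Prkaca (0.62), Uqcrb (0.58), Map2 (-0.68) and Srsf11 (-0.40), a splicing factor, among others.

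Leaving out array A30 gave 62 rises (0.138%) and 79 falls (0.175%). These counts too moved with single arrays: leaving out in addition A29, B29 or C29 gave 20, 18 or 20 rises and 9, 7 or 12 falls, AR16 or B16 gave 30 or 23 and 35 or 19, and D18 or A19 gave 109 or 147 and 118 or 451. Without C21, D21 or E21 there were 34, 33 or 34 rises and 33, 39 or 38 falls. Of the 172 probe sets called in either comparison, 63 were called in both, 31 only with A30 and 78 only without it. On the scale from the mean of the other 5-month arrays (0) to the 12-month mean (1), A30 had a median position of 0.13 among the 63 and -0.0942 among the 31, but 1.01 among the 78. In 72 of the 78 it lay nearer to the 12-month mean, as it did in 2 of the 63 and 0 of the 31. This position is partly fixed by the way the classes were formed, since a probe set gains its call without A30 when A30 lies far from the other 5-month arrays. Of the 78 probe sets, 53 had 1 listed gene, and the chromosome of the others was not known here. Of the 53, 10 were on the Y chromosome and 18 on the X chromosome. Cone marker genes held 11, against 20 of the 45037 probe sets tested. Those of Arr3 and Opn1mw were counted both as cone markers and on the X chromosome.

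The sex-linked part was sharp. Eif2s3y, a Y-linked translation factor, read -0.45, -0.56, -0.69 and 8.03 at 5 months and 7.77 to 8.1 at 12 months. It rose by 8.54 log2 without A30 (adjusted p = 8.25e-11) and had an adjusted p of 0.084 with it. Xist, the noncoding RNA that silences an X chromosome in females, read 0.72, 0.38, 0.67 and -7.92 at 5 months and -8.1 to -7.69 at 12 months. It fell by 8.49 without A30 (adjusted p = 1.45e-11). The Y-linked demethylase Kdm5d and Uty behaved as Eif2s3y did, with 4.02 and 5.6 on A30. Kdm6a, an X-linked demethylase that escapes silencing, fell by 1.40 (adjusted p = 0.0428), with 0.57, 0.53, 0.4 and -0.87 at 5 months and -1.75 to -0.47 at 12 months. Without A30 the Y chromosome held 26.2% of the raised probe sets with 1 gene, against 0.0576% of those tested, and the X chromosome held 37% of the lowered ones, against 3.24%. With A30 the X chromosome held 4.88% of the lowered ones and the Y chromosome 4.76% of the raised ones. The latter was 1 probe set of Orly, which rose by 1.04 (adjusted p = 0.0415) and was called with and without A30. Without A30, age and the Y-linked signal cannot be told apart in this comparison, because all 12-month arrays and none of the remaining 5-month arrays carried it.

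The cone genes formed the other large block. Opn1sw, the short-wavelength cone opsin, read -0.89, -0.94, -0.38 and 2.4 at 5 months and 1.55, 2.11, 0.43 and 1.69 at 12 months. Without A30 it rose by 2.18 log2 (SE 0.331, adjusted p = 0.0277), and with A30 its adjusted p was 0.301. Arr3, the cone arrestin, rose by 2.59 (adjusted p = 0.00498), Pde6c, the cone phosphodiesterase, by 2.32 (adjusted p = 0.0344), Gnat2, the cone transducin, by 1.94 (adjusted p = 0.0396) and Opn1mw, the medium-wavelength opsin, by 1.77 (adjusted p = 0.0365). On A30 these 4 genes read 2.07, 2.44, 2.33 and 2.11, and with it none passed. The median difference over 15 cone markers was 1.03 with A30 and 1.64 without it, against 0.03 and 0.04 over all genes, and 8 of the 15 passed without it. In sorted cells pooled for an array, the number of cones and the RNA level per cell cannot be told apart. Which of the sorted cells carried these transcripts was not tested. With the cone median as a covariate, Pde6c, Gnat2 and Opn1mw had small negative differences, between -0.19 and -0.05. Under it Arr3 differed by 0.55 and Opn1sw by 0.07. All of these genes are in the list whose median is the covariate. Part of this shrinkage was therefore fixed in advance, and no conclusion is drawn from it.

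Other genes gained a call without A30 because A30 read like the oldest arrays. Gpat3, an enzyme of triglyceride synthesis, read -0.79, -0.02, -0.13 and 2.23 at 5 months and 1.31 to 2.21 at 12 months, a rise of 1.98 log2 (adjusted p = 0.0335). Vegfa, the growth factor of blood vessels, read -0.37, -0.56, -0.91 and 0.67 at 5 months and 0.87, 1.08, 0.66 and 0.23 at 12 months, a rise of 1.32 (adjusted p = 0.0287). Socs3, an inhibitor of cytokine signaling, rose by 1.17 (adjusted p = 0.0452). Igfbp5, which binds insulin-like growth factors, read 0.84, 0.61, 0.82 and -1.02 at 5 months and -0.67 to -0.35 at 12 months, a fall by 1.23 (adjusted p = 0.0167). These values are of 1 probe set per gene. Without A30 the other probe set of Vegfa differed by 0.35, that of Igfbp5 by -0.485, and those of Socs3 by 0.31 and 1.27. None of these passed, and Gpat3 had a single probe set. A30 lay beyond all 4 of the 12-month arrays for Gpat3 and Igfbp5, and between them for Vegfa. With the cone median, which was also high on A30, as a covariate, the difference without A30 was 0.67 for Gpat3 (adjusted p = 0.962, against 0.00796 to 0.962 over its settings) and -1.21 for Igfbp5 (adjusted p = 0.833, against 0.00274 to 0.833). The value of Gpat3 thus shrank and that of Igfbp5 stayed, and neither passed.

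**Figure D4:**
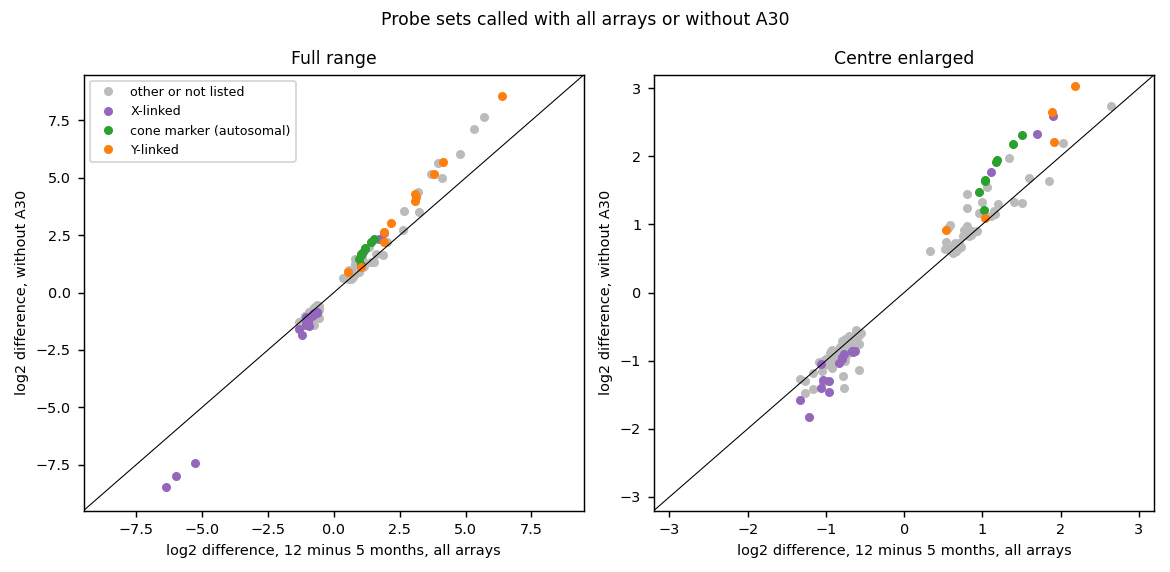
Difference of 12 minus 5 months on the log2 scale with A30 (x axis) and without it (y axis) for the 172 probe sets called in either comparison, over the full range (left) and enlarged at the centre (right), coloured as Y-linked, X-linked, autosomal cone marker or other, with a line at equal values. Y-linked and cone genes lie above the line and X-linked genes mostly below it, with Eif2s3y at 6.396 and 8.54.

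The calls that held with and without A30 were 19 rises and 44 falls. Hspa2 (1.30 without A30, adjusted p = 0.0279), Irs1 (1.13, adjusted p = 0.0396), Fgfbp3 (0.91, adjusted p = 0.0279), Slc49a4 (1.19, adjusted p = 0.0396) and H2-K1 (0.90, adjusted p = 0.0455) were among the rises. Guca1b (-0.89, adjusted p = 0.0167), Mecr (-0.98, adjusted p = 0.0167), Rbm25 (-0.84, adjusted p = 0.0185), Rcor3 (-1.15, adjusted p = 0.0277) and Zeb1 (-0.99, adjusted p = 0.0254) were among the falls. Each of these falls was the call of 1 probe set, and no other probe set of the same gene passed. Pgbd1 (1.33, adjusted p = 0.0603), Skap2 (0.89, adjusted p = 0.0702) and Malat1 (-0.74, adjusted p = 0.0508) kept their size but not their call. As gene means, 23 genes rose (0.126%) and 10 fell (0.055%) without A30, while none passed with it. The largest rises were of the Y-linked Eif2s3y, Uty and Kdm5d, and 8 of the 23 genes were cone markers. All of the falls but those of Dsn1 and 1700028E10Rik were of X-linked genes, with Xist the largest. Hspa2, Irs1, Fgfbp3, Prkaca and Vegfa were also among those that rose. For Vegfa, A30 read 0.42, among the 12-month values of 0.31 to 0.62.

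The functions were described over 29 lists of genes. With all arrays no gene mean of any list passed the adjusted p, so each list is given by its median difference and by how many genes had all 4 arrays of one age beyond all 4 of the other. Of all 18193 genes, 966 (5.31%) were higher at 12 months in this sense and 767 (4.22%) lower, with a median difference of 0.03.

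**Figure D5:**
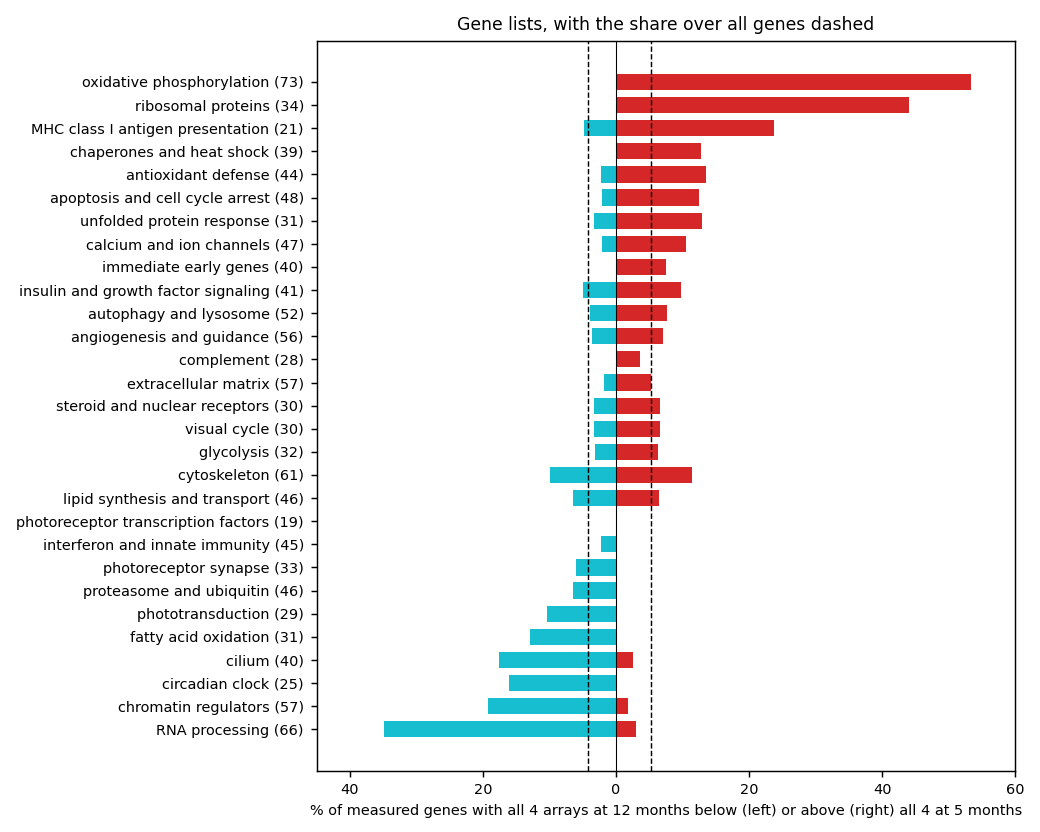
Share of the measured genes of each list (number in brackets, y axis) whose 4 arrays at 12 months all lie below (bars to the left) or above (bars to the right) all 4 at 5 months, in percent (x axis), with dashed lines at the shares over all genes. Oxidative phosphorylation (53.4% higher) and ribosomal proteins (44.1% higher) lie at one end and RNA processing (34.8% lower) at the other.

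In the rod's own machinery few genes separated the ages. Of 29 phototransduction genes, 0 were higher and 3 lower with the ages apart, and the list median was -0.04. The 3 were Guca1b, whose mean over its probe sets differed by -0.47 (adjusted p = 0.0573), Grk1, the rhodopsin kinase, by -0.45 (adjusted p = 0.157), and Sag, the rod arrestin, by -0.05 (adjusted p = 0.773). Sag was apart only because its arrays were so close together, with 0.01 to 0.08 at 5 months and -0.01 to 0.01 at 12 months. Gnat1, the rod transducin, differed by 0.01 and Pde6b, a phosphodiesterase subunit, by -0.10. None of 19 photoreceptor transcription factors had its ages apart, and Nrl and Crx, which drive rod genes, differed by 0.08 and -0.02. The 13 rod markers had a median difference of -0.01. The visual cycle (30 genes, 2 higher and 1 lower, median 0.07) and the photoreceptor synapse (33 genes, 0 and 2, median -0.02) were close to all genes.

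Cilium genes, which build and carry cargo to the outer segment, mostly had negative differences. Of 40 measured, 32 had a negative difference, 7 were lower with the ages apart and 1 higher, and the median was -0.14. Mak, a kinase of the photoreceptor axoneme, read 0.2, -0.06, 0.02 and 0.22 at 5 months and -0.46, -0.24, -0.33 and -0.33 at 12 months (difference -0.43, adjusted p = 0.0756). Lca5, a ciliary transport protein, differed by -0.41 (adjusted p = 0.126) and Rp1, a microtubule protein of the axoneme, by -0.32 (adjusted p = 0.138). Arl3, a small GTPase that releases lipidated cargo, was the one that was higher, by 0.43 (adjusted p = 0.0759). For 5 of the 7 lower genes the 12-month arrays lay below all other arrays, and for 1 the 5-month arrays lay above all others, against 231 and 231 of the 767 such genes among all. The count of 7 was 11 without C29 and 12 without B16.

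Of the 29 lists, oxidative phosphorylation had the largest share of genes with the ages apart. Of 73 genes, 65 had a positive difference, 39 (53.4%) were higher with the ages apart and none lower, 49 had an unadjusted p under 0.05, and the median was 0.27. By complex, 16 of 34 genes of complex I, 0 of 4 of complex II, 6 of 9 of complex III, 8 of 10 of complex IV and 8 of 15 of complex V were higher with the ages apart, with medians of 0.26, 0.22, 0.27, 0.34 and 0.27. Ndufa1 of complex I read -0.87, -0.49, -0.4 and -0.82 at 5 months and 0.61, 0.01, 0.15 and 0.07 at 12 months (difference 0.85, adjusted p = 0.0677). Ndufa13 differed by 0.60 and Ndufa8 by 0.56, both of complex I and both with an adjusted p of 0.0573. Cycs, the electron carrier cytochrome c, differed by 0.44 (adjusted p = 0.184).

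The respiratory genes at 12 months resembled those at 1.5 months. The median over the list was -0.38, -0.1, -0.17 and -0.27 on the 5-month arrays, 0.25, 0.06, 0 and -0.05 on the 12-month arrays and 0.02 to 0.17 at 1.5 months. For 35 of the 39 genes all 5-month arrays lay below the other 8, and for 1 the 12-month arrays lay above the other 8, against 274 and 246 of the 966 such genes among all. Ribosomal proteins had the same course, with 15 of 34 (44.1%) higher, none lower, a median of 0.33, and 12 of the 15 with the 5-month arrays below all others. Rpl27 differed by 0.52 (adjusted p = 0.0926) and Rps26 by 0.45 (adjusted p = 0.0759). The ribosomal median was -0.36, -0.09, -0.11 and -0.41 at 5 months and 0.27, -0.02, 0.08 and -0.03 at 12 months, so that B16 and A19 lay above B29 by under 0.1, and the count of 15 was 23 without B29. The BioC controls were low on the same 4 arrays, and their part in these lists was not tested.

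Other energy pathways did not share this shift. Glycolysis had 2 of 32 genes higher and 1 lower, with a median of 0.03. Fatty acid oxidation had 0 of 31 higher and 4 lower, with a median of -0.10. Ppara, a nuclear receptor that controls fatty acid oxidation, read 0.18, 0.03, -0.04 and 0.46 at 5 months and -0.23, -0.26, -0.53 and -0.47 at 12 months (difference -0.53, adjusted p = 0.117). Cpt1a, which brings fatty acids into mitochondria, differed by -0.32 (adjusted p = 0.136). Lipid synthesis and transport had 3 of 46 higher and 3 lower. In it Elovl1, which elongates very long chain fatty acids, differed by 1.23 (adjusted p = 0.1), with -1.22 to -1.01 at 5 months and -0.84 to 0.92 at 12 months, and Abca1, a cholesterol exporter, by 0.54 (adjusted p = 0.105).

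RNA processing and chromatin genes were more often lower. Of 66 RNA processing genes, 23 (34.8%) were lower with the ages apart and 2 higher, and the median was -0.12. Srsf11 read 0.28, 0.25, 0.18 and 0.22 at 5 months and -0.21, -0.17, -0.16 and -0.13 at 12 months (difference -0.40, adjusted p = 0.052). As gene means Rbm25 differed by -0.48 (adjusted p = 0.0573), Malat1 by -0.42 (adjusted p = 0.0753) and Luc7l2 by -0.33 (adjusted p = 0.11). Of the 23 genes, 11 had the 5-month arrays above all others, 6 the 12-month arrays below all others, 2 both and 8 neither, against 231, 231, 10 and 315 of the 767 among all genes. Of 57 chromatin regulators, 11 (19.3%) were lower and 1 higher, with a median of -0.09. Smarca2, a motor subunit of a chromatin remodeling complex, differed by -0.38 (adjusted p = 0.106). Kdm6a, whose array A30 read with the 12-month arrays, passed without A30. In the circadian clock 4 of 25 genes were lower and none higher, with a median of -0.09, among them Clock (-0.33, adjusted p = 0.0926) and Per3 (-0.35, adjusted p = 0.133), whose products drive and repress the daily cycle.

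Several stress and immune lists had more genes higher than lower, though few in number. Chaperones had 5 of 39 higher and none lower, led by Hspa2, with a list median of 0.05. The unfolded protein response had 4 of 31 higher and 1 lower, with a median of 0.11. In it the chaperones Calr and Manf each differed by 0.51 (adjusted p = 0.107 and 0.109) and Hspa5, the main chaperone of the endoplasmic reticulum, by 0.37 (adjusted p = 0.156). Antioxidant defense had 6 of 44 higher and 1 lower, with a median of 0.05. MHC class I presentation had 5 of 21 (23.8%) higher and 1 lower, with a median of 0.11. H2-K1 as a gene mean read -0.24, -0.2, 0.14 and 0.04 at 5 months and 0.47, 0.89, 0.83 and 0.29 at 12 months (difference 0.68, adjusted p = 0.0759), and H2-D1 differed by 0.40 (adjusted p = 0.117). Hfe, an MHC-like regulator of iron uptake, was the lower one, by -0.64 (adjusted p = 0.0677), although its 1.5-month arrays, at -1.32 to -0.91, were lower still. Cd59a, a complement inhibitor, differed by 0.59 (adjusted p = 0.123), the only one of 28 complement genes with its ages apart, and none of 45 interferon and innate immunity genes was higher.

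Signaling lists held single genes with larger differences. Of 40 immediate early genes 3 were higher and none lower, with a median of 0.15. Fos, an AP-1 transcription factor, read -0.81, -0.69, -0.85 and -0.93 at 5 months and -0.09, 0.13, 0.45 and 0.09 at 12 months (difference 0.97, adjusted p = 0.0759), and Dusp1, a phosphatase of MAP kinases, differed by 0.73 (adjusted p = 0.123). At 1.5 months Fos read -0.11 to 0.99, so that again the 5-month arrays lay below the rest. In insulin and growth factor signaling 4 of 41 were higher and 2 lower, with a median of -0.06, and Irs1 was the single gene that passed without A30. In angiogenesis and guidance 4 of 56 were higher and 2 lower, among them Efnb1, an ephrin ligand, at 0.45 (adjusted p = 0.0753). Calcium and ion channel genes had 5 of 47 higher and 1 lower, with Camk2n1, an inhibitor of CaM kinase II, at 0.71 (adjusted p = 0.076). The cytoskeleton had 7 of 61 higher and 6 lower and a median of -0.01, and the proteasome and ubiquitin list 0 of 46 higher and 3 lower, with Herc4, a ubiquitin ligase, at -0.56 (adjusted p = 0.0759).

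Of the other lists, apoptosis and cell cycle arrest had 6 of 48 genes higher and 1 lower, autophagy and lysosome 4 of 52 and 2, extracellular matrix 3 of 57 and 1, and steroid and nuclear receptors 2 of 30 and 1. Ccnd1, a cyclin of the first gap phase, differed by 0.68 (adjusted p = 0.0926). Their medians lay between 0.04 and 0.06. Markers of cells other than rods and cones had medians between -0.15 for Müller glia and 0.08 for amacrine and horizontal cells, and none of their genes passed with or without A30. Without A30 the Müller glia median was -0.37, and 4 of the 14 genes were lower with the ages apart where 0 were with it, against 5.56% of all genes without A30.

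Over the means of the 2 ages, the direction of the step went with the length of the gene, but not on every array. The genes were split by their span in RefSeq (GRCm38.p6) into 5 groups of 3628 to 3630. The shortest (up to 6247 bases) had a median difference of 0.10, with 8.87% higher and 0.551% lower with the ages apart. Its median value was -0.042, -0.028, -0.082 and -0.006 on A29, B29, C29 and A30. It was 0.091, 0.043, 0.039 and -0.012 on AR16, B16, D18 and A19, so A19 lay below A30. From this group to the longest, A19 went from -0.012 to 0.005 and A30 from -0.006 to -0.003. The next to longest (28196 to 63933 bases) had a median of -0.02, with 3.72% higher and 7.58% lower, and the longest had a median of -0.01, with 3.31% and 6.89%. Spans were taken for 5 of the lists only, and most of these fell along the same axis. The median span was 7279 bases for oxidative phosphorylation and 3830 bases for ribosomal proteins, of which 30 of 34 were in the shortest group. It was 51153 bases for cilium genes and 69544 bases for chromatin regulators, of which 35 of 40 and 46 of 57 were in the 2 longest groups. RNA processing genes, with a median span of 24474.5 bases, were nearer the middle, although 34.8% of them were lower with the ages apart. How much of each list's shift went with gene length was not tested. The Gapdh controls, whose 3′ minus 5′ difference grows as RNA is degraded, spanned -0.03 to 0.16 at 5 months and -0.1 to 0.11 at 12 months, so these ranges overlapped.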

How the data were processed

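RNA of flow-sorted rods was measured on Affymetrix GeneChip Mouse Genome arrays at 3 ages, with 4 biological replicates each. As the methods describe, the RNA was amplified and hybridized, and the authors summarized the scans by Robust Multichip Average (version not given in the sources used here), with background correction and quantile normalization. The deposited log2 values have the median of each probe set over all arrays at 0, so a filter on dim probe sets could not be run. The precision rests on the number of arrays and on the spread between them. Samples were grouped by the age in the labels and used without normalizing again.

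In limma 3.58.1 (R 4.3.3), the 3 ages were fitted together over 45037 probe sets, controls left out, and the contrast of 12 minus 5 months was adjusted by Benjamini-Hochberg over all of them. The study's thresholds, an adjusted p under 0.05 and 1.5-fold, set the counts, while for a single gene or probe set the words rose and fell need only the adjusted p. The same was done without array A30 (11 arrays). Gene names came from the platform annotation, which gave 1 gene for 34945 probe sets, several for 932 and none used here for 9160. Gene means were taken over probe sets with 1 gene (18193 genes). Of 1512 entries in 29 function and 14 marker lists, 1373 matched. The members and lists were chosen with earlier results of these data known, so none is independent support. The genes that could be named were up to 15 raised and 15 lowered genes with the largest differences and all arrays apart, 10 each without A30, list members with the smallest p, genes the study names and markers. Camsap1, Clasp1, Clip1, Zc3h13, Adar, Tra2b, Socs3 and Mrpl14 lie outside that rule and were picked with their values known. The tests were checked on simulated data. Alternatives were other normalizations, tests, covariates, thresholds and each array left out.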

Additional observations from a re-analysis of the deposited data

Results flagged for a closer look

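Of 180 groups of 4 arrays checked for a single array far from the rest, 17 had one. Chance gives about 1 in 20 where values are not selected, but in 12 of the 17 it was array A30 at 5 months, and 10 of these were probe sets named because they were called without A30, which favours those where A30 lies far away, so this rate does not apply to them. It read 8.03 for Eif2s3y, 5.6 for Uty, 4.02 for Kdm5d, 0.7 for a probe set of the Y-linked Orly, 2.4 for Opn1sw, 2.11 for Opn1mw, -7.92 for Xist, -1.02 for the X-linked 2810403D21Rik, -0.87 for Kdm6a and -1.02 for Igfbp5. Its median over the Y-linked genes was 1.56, and its median over the interferon and innate immunity genes was -0.05.

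At 12 months, D18 was far from the other arrays for Sync (-0.52) and for the phototransduction median (-0.12), and A19 for Srprb (0.33). At 5 months A29 was far from the rest for Gm32743 (0.99), and C29 for the median of apoptosis and cell cycle arrest genes (-0.07).

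Among the controls, which no comparison used, the BioC probe sets averaged 1.47 log2 lower at 5 than at 12 months (difference -1.47), with no overlap between the ages. The other bacterial controls, bioB, bioD and cre, had means between -0.38 and 0.01 at 5 months and between -0.12 and 0.4 at 12 months.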

How the results depend on the processing

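With all arrays, the 31 rises and 63 falls became 6 and 18 with a plain test, 53 and 99 after another quantile normalization, 69 and 139 with array weights, 14 and 29 over probe sets with 1 gene, and 13 and 10 at 2-fold. They became 0 and 0 in limma with the code number as a random block (correlation 0.206; 2212 higher and 2611 lower at an unadjusted p under 0.05), with the cone median as a covariate (2567 and 3257), with the Y-linked mean in its place (1961 and 2759) and over the 5- and 12-month arrays alone (3110 and 3240). Leaving out each array gave 0 to 84 rises and 0 to 160 falls. Over these settings the 30 named probe sets kept their call 239 times, lost it 421 times and changed direction 0 times.

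Without A30, the 62 rises and 79 falls became 21 and 25 with a plain test, 160 and 210 after quantile normalization, 135 and 249 with array weights, 18 and 8 with the block (correlation 0.212), 12 and 3 with the cone covariate, 18 and 13 over 2 ages, 36 and 40 with 1 gene, and 44 and 28 at 2-fold. Each array left out gave 18 to 147 rises and 7 to 451 falls. Of the named probe sets, 3 reversed with the cone covariate: Pde6c (-0.045), Gnat2 (-0.186) and Opn1mw (-0.068). These genes are in the list whose median is that covariate, so part of their change was fixed in advance. The causes were not tested.

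Among the lists, each array left out gave 39 to 49 genes higher for oxidative phosphorylation, 15 to 23 for ribosomal proteins, and 24 to 26 lower for RNA processing, 11 to 14 for chromatin and 7 to 12 for cilium, while all genes went from 6.84% to 9.43% higher and from 5.12% to 6.34% lower, since fewer arrays had to be apart. The medians of these 5 lists kept their sign. Without A30, the median went from -0.009 to 0.009 for the cytoskeleton and from 0.029 to -0.016 for angiogenesis and guidance. No paired analysis was possible because the sample codes of the ages share no replicate number.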

Other observations

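Array C29 read with the 12-month arrays for a few genes of retinoid and lipid metabolism, chosen after their values were seen. Rdh9, a retinol dehydrogenase, read 1.31 on C29, -0.1 to 0.09 on the other 5-month arrays and 1.01 to 1.6 at 12 months. Rdh16, of the same family, read 0.97 on C29, -0.17 to 0.1 on the others and 0.66 to 0.91 at 12 months. Scd1, which desaturates fatty acids, read 0.67, -0.13 to -0.06 and 0.66 to 0.98. Gadd45b, a gene induced by stress, read 0.55, -0.61 to -0.34 and 0.28 to 1.19. None passed the adjusted p from 5 to 12 months (0.179, 0.218, 0.119 and 0.126). At 1.5 months Rdh9 lay lower than at any later age, at -2.54 to -0.98.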
